A study of Capra hircus with 10 samples.

Results

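Integrins and laminins form the 2 sides of a contact between a cell and the basement membrane. An integrin is a receptor made of 1 alpha and 1 beta subunit that spans the cell membrane, binds matrix outside the cell and is coupled to the actin skeleton inside it. A laminin is a secreted trimer of 1 alpha, 1 beta and 1 gamma chain, and laminin networks are the base on which basement membranes are built. In the ovary a basement membrane encloses the granulosa cells of each follicle; after ovulation it is broken down, vessels grow in, and the corpus luteum forms with basement membrane around its vessels. The genes described here are the protein-coding genes of the deposited transcript table whose symbols name an integrin alpha subunit (ITGA), an integrin beta subunit (ITGB followed by 1 digit) or a laminin alpha, beta or gamma chain (LAMA, LAMB, LAMC), chosen by name and not by any measured value. They number 36 of the 20587 protein-coding gene symbols in the table: 17 integrin alpha, 8 integrin beta, 5 laminin alpha, 3 laminin beta and 3 laminin gamma genes, with 75 transcripts between them.

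The samples were whole ovaries of Anhui white goats (Capra hircus) obtained from a slaughterhouse, 5 taken in the follicular (F1 to F5) and 5 in the luteal phase (L1 to L5) of the estrous cycle, numbered by their replicate labels. The sources used here name no treatment, and the age of the goats is not given there. Nothing states that each ovary came from a different goat, so the p-values measure the spread between ovaries. Ribosomal RNA-depleted RNA was sequenced as 1 strand-specific library per ovary. Levels are FPKM (fragments scaled to the length of the transcript and to all mapped fragments), a value per length that allows levels to be compared between genes, and the transcripts of a gene were summed. The fragments behind each value are not known. Summed over all transcripts, FPKM came to between 452508 and 503276 per luteal ovary and between 492324 and 540124 per follicular ovary. Means are given with their SD over 5 ovaries per phase, and SE is the standard error. Differences are luteal minus follicular on log2(FPKM + 0.1), a scale that understates changes of low genes. A gene was tested with limma where 5 or more ovaries reached an FPKM of 0.1, which held for 15359 genes, and counts as higher or lower in the luteal phase where its Benjamini-Hochberg adjusted p over all these genes is under 0.05.

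The marker genes of the tissue differed strongly between the phases. Summed FPKM of 6 luteal steroidogenic markers (STAR, CYP11A1, LHCGR, PTGFR, OXT and SCARB1) ranged from 5905 to 8076 in luteal against 131 to 183 in follicular ovaries, and 6 of 6 were higher in the luteal phase. Of 8 endothelial markers 7 were higher, with summed FPKM of 244 to 309 in luteal against 139 to 168 in follicular ovaries. Of 7 granulosa cell markers 3 (FSHR, AMH and FOXL2) were lower in the luteal phase and none was higher, and the summed FPKM ran from 157 to 708 in luteal against 252 to 1192 in follicular ovaries, with overlap. All 7 smooth muscle and pericyte markers passed the threshold: the muscle genes ACTA2, MYH11, TAGLN, CNN1 and DES were lower and the pericyte genes RGS5 and PDGFRB were higher, with summed FPKM of 686 to 1104 in luteal against 1244 to 1537 in follicular ovaries. Of 7 stromal markers 2 were higher and 2 lower, with summed FPKM of 2001 to 3588 in luteal against 1833 to 2568 in follicular ovaries. Of 6 oocyte markers 4 were lower, with summed FPKM of 7.27 to 16.4 in luteal against 13.9 to 32.9 in follicular ovaries. Of 7 leukocyte markers 1 (CSF1R) was higher, with summed FPKM of 93.6 to 118 in luteal against 56.8 to 114 in follicular ovaries. Surface epithelium markers summed to 13.2 to 29.4 in luteal against 10.9 to 44.0 in follicular ovaries, with 1 of 4 higher and 1 lower. In RNA from a whole ovary, fewer cells of a type and less RNA per cell cannot be told apart.

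Of the 36 integrin and laminin genes 34 were tested, and 16 of these passed the threshold, 8 higher and 8 lower in the luteal phase. These 16 are 47.1% of the members tested, beside 43.7% of all genes tested. The 8 higher members compare with 15.9% of all genes called higher, and the 8 lower ones with 27.8% called lower. Among integrins 7 were higher and 4 lower, and among laminins 1 was higher and 4 were lower, a difference between the classes that was not tested. The split depends on the scaling: 12 members were higher and 5 lower with the medians of the ovaries made equal (a common median), and 11 were higher and 5 lower on the TPM scale. The calls over all genes shifted as well, from 36.3% of calls in the higher direction to 48.8% and 52.5%. The median log2 fold change was 0.20 over 24 integrins and -0.37 over 10 laminins, beside -0.14 over all genes. The values of the phases did not overlap for 5 higher and 6 lower members, where 11.2% and 17.2% of all genes were separated in these directions. All 34 tested genes reached an FPKM of 0.1 in all 10 ovaries, so none was tested on the strength of 1 phase. The untested members, ITGB6 and LAMB4, stayed at an FPKM of at most 0.0285 and 0.0505.

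**Figure D1:**
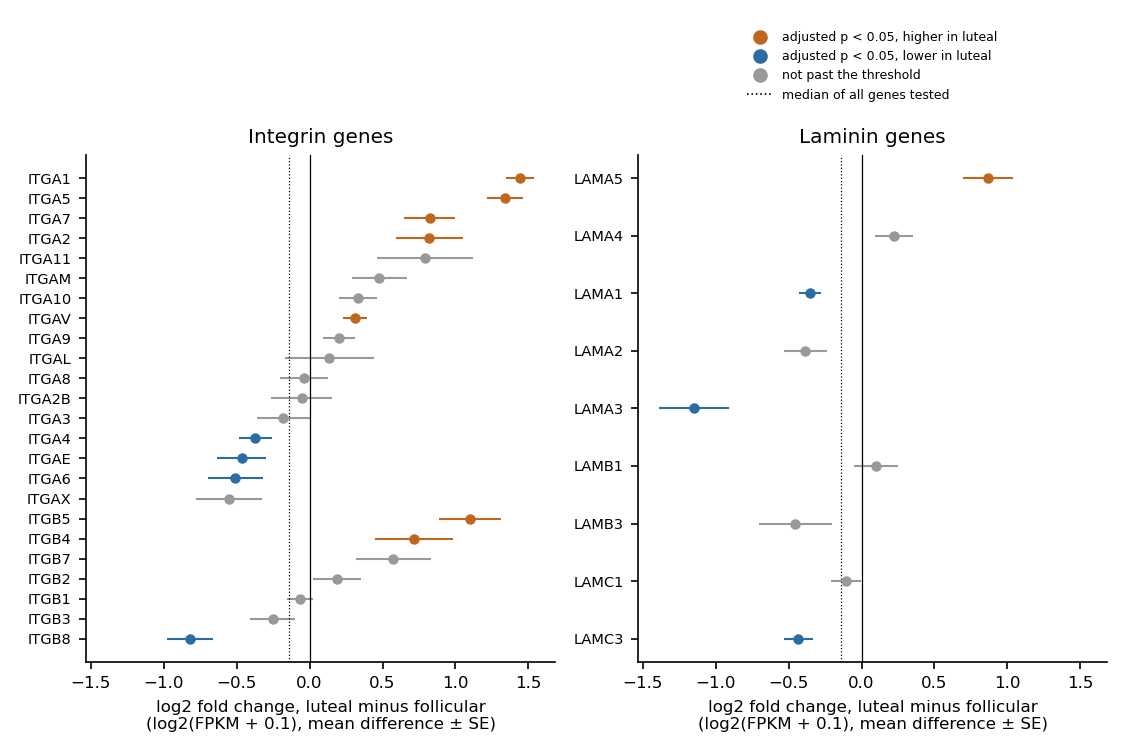
Log2 fold change (luteal minus follicular, on log2(FPKM + 0.1)) of 24 integrin and 9 laminin genes, with bars of 1 standard error from limma and 5 ovaries per phase. ITGA1 and ITGA5 lie farthest to the right and LAMA3 and ITGB8 farthest to the left, and ITGB1, LAMB1 and LAMC1 lie close to 0; the dotted line is the median of all genes.

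Levels of the members spanned more than 4 orders of magnitude. ITGB1, the beta subunit used by most alpha subunits outside blood cells, led all 36 with a mean FPKM of 231 over the 10 ovaries. It was followed by LAMB1 at 131, ITGB5 at 92.0, ITGA6 at 91.2, ITGAV at 67.9 and LAMA1 at 62.2. This order pools the phases and differs within each: ITGB5 was at a mean of 127 in luteal against 57.3 in follicular ovaries, and ITGA6 at 74.5 against 108. Of the tested members 12 had a mean FPKM of at least 10, 17 lay between 1 and 10, and 5, ITGA2B, ITGAX, LAMA3 and LAMB3 among them, were under 1. Between ovaries of a phase the members varied with a median coefficient of variation of 16.8% in the luteal and 21.0% in the follicular phase, beside 14.5% and 16.1% over all genes tested.

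The shared subunits did not pass the threshold. ITGB1 had an FPKM of 205, 219.6, 225, 215 and 263 in L1 to L5, and of 221, 271, 233, 245 and 211 in F1 to F5. The phases overlapped widely, at 226 ± 22.1 in luteal against 236 ± 23.4 in follicular ovaries (log2 fold change -0.066, SE 0.0904, limma adjusted p = 0.578), and the sign turned under a common median (log2 fold change 0.02, adjusted p = 0.903). LAMB1, the most abundant of the laminin beta chains measured here (LAMB2, another main beta chain, was not analysed), had an FPKM of 120.5, 151, 155, 115 and 130.4 in L1 to L5, and of 155, 85.4, 141, 124 and 131 in F1 to F5. F2 was the lowest ovary and the others of both phases were mixed (log2 fold change 0.10, SE 0.150, limma adjusted p = 0.625); without that ovary the log2 fold change was -0.04 (adjusted p = 0.779). LAMC1, the gamma chain of most laminins, had an FPKM of 24.9, 23.4, 31.0, 20.8 and 22.7 in L1 to L5, and of 29.7, 25.8, 25.5, 25.6 and 24.8 in F1 to F5. L3 and F1 were the highest, and the phases overlapped (log2 fold change -0.11, SE 0.102, limma adjusted p = 0.416). Over the alternatives the log2 fold change of LAMC1 ranged from -0.19 (without L3) to -0.0078 (TPM scale), never past the threshold.

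Collagen-binding alpha subunits, which pair with ITGB1, gave the largest difference of the set. ITGA1, a receptor for basement membrane type IV collagen, had an FPKM of 47.0, 40.3, 60.6, 45.0 and 47.3 in L1 to L5, and of 18.2, 17.9, 17.9, 17.1 and 16.4 in F1 to F5. Every luteal phase ovary was more than 2 times the level of the highest follicular phase ovary, and the follicular phase ovaries lay within a narrow range. The means were 48.0 ± 7.54 in luteal against 17.5 ± 0.720 in follicular ovaries, a 2.75-fold difference (log2 fold change 1.44, SE 0.0963, limma adjusted p = 1.44e-06). ITGA2, a second collagen receptor, was also higher, at 3.98 ± 1.08 in luteal against 2.24 ± 0.815 in follicular ovaries (log2 fold change 0.82, SE 0.230, limma adjusted p = 0.0140), although F2, at 3.67, lay among the luteal phase ovaries. ITGA10 and ITGA11, the other two of this group, did not pass the threshold. ITGA10 was at 1.72 ± 0.201 in luteal against 1.35 ± 0.141 in follicular ovaries (log2 fold change 0.33, adjusted p = 0.0603). It passed under a common median (adjusted p = 0.0194), on the TPM scale (adjusted p = 0.0482), under quantile normalization (adjusted p = 0.0158), with a pseudocount of 1 (adjusted p = 0.0454) and without limma's trend (adjusted p = 0.0256). ITGA11 ranged from 0.768 to 2.66 in luteal and from 0.388 to 0.962 in follicular ovaries (log2 fold change 0.79, adjusted p = 0.0723; without L4, adjusted p = 0.0442). It also passed under a common median (adjusted p = 0.0470) and quantile normalization (adjusted p = 0.0349). Of the endothelial markers 7 of 8 were higher in the luteal phase too, and their part in the differences of the integrins was not tested.

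Receptors for fibronectin and vitronectin, matrix proteins with a short arginine-glycine-aspartate motif, included the next largest differences among the higher genes. ITGA5, which with ITGB1 forms the main fibronectin receptor, had an FPKM of 16.5, 11.1, 13.8, 13.8 and 15.8 in L1 to L5, and of 4.55, 5.81, 6.45, 5.80 and 5.09 in F1 to F5. The lowest luteal phase ovary stood well above the highest follicular phase ovary. Its means were 14.2 ± 2.11 in luteal against 5.54 ± 0.732 in follicular ovaries, a 2.56-fold difference (log2 fold change 1.34, SE 0.125, limma adjusted p = 1.69e-05). ITGB5, which pairs with ITGAV to bind vitronectin, had an FPKM of 99.2, 75.3, 151, 135 and 173 in L1 to L5, and of 67.3, 63.8, 43.4, 51.8 and 60.2 in F1 to F5. The phases did not overlap, but the luteal phase ovaries were spread over more than 2 times, with L2 close to the follicular phase. The means were 127 ± 39.2 in luteal against 57.3 ± 9.65 in follicular ovaries, a 2.21-fold difference (log2 fold change 1.10, SE 0.210, limma adjusted p = 0.00177). ITGAV itself was also higher, at 75.2 ± 6.48 in luteal against 60.5 ± 5.09 in follicular ovaries (log2 fold change 0.31, SE 0.0804, limma adjusted p = 0.00936), and this call was lost under quantile normalization (log2 fold change 0.22, adjusted p = 0.0622). ITGB8, another partner of ITGAV and a subunit known for releasing active TGF-beta from its latent form, went the other way. It had an FPKM of 3.92, 4.19, 5.42, 6.72 and 6.92 in L1 to L5, and of 9.37, 9.87, 8.73, 9.81 and 9.37 in F1 to F5. All 5 follicular phase ovaries lay close together and above every luteal phase ovary (5.43 ± 1.38 in luteal against 9.43 ± 0.456 in follicular ovaries, log2 fold change -0.82, SE 0.155, limma adjusted p = 0.00168). ITGB3, which pairs with ITGAV and with the platelet subunit ITGA2B, was at 2.69 ± 0.643 in luteal against 3.18 ± 0.350 in follicular ovaries (log2 fold change -0.25, adjusted p = 0.201; without L1, adjusted p = 0.0330). ITGA8 and ITGA2B gave -0.036 and -0.053 on the log2 scale (adjusted p = 0.872 and 0.853), and both signs turned under a common median.

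Laminin-binding integrins were divided. ITGA6, a partner of ITGB1 and ITGB4, was the most abundant alpha subunit by the mean over all 10 ovaries. In luteal ovaries alone the mean of ITGAV was about as high, at 75.2 beside 74.5 for ITGA6. ITGA6 had an FPKM of 83.7, 70.2, 55.3, 72.7 and 90.9 in L1 to L5, and of 146, 114, 67.4, 106 and 105 in F1 to F5. F3 was below 4 of the luteal phase ovaries, and the other follicular phase ovaries were above all of them. The means were 74.5 ± 13.7 in luteal against 108 ± 27.9 in follicular ovaries (log2 fold change -0.51, SE 0.188, limma adjusted p = 0.0462). This call was lost under a common median (log2 fold change -0.42, adjusted p = 0.0890), on the TPM scale (adjusted p = 0.113), with no filter (adjusted p = 0.0620), without limma's trend (adjusted p = 0.0631) and in 7 of the 10 fits on 9 ovaries, those without L2, L3, L4, F1, F2, F4 or F5 (adjusted p from 0.0760 to 0.107), as with its most abundant transcript alone (adjusted p = 0.611). ITGA7, a laminin receptor best known from muscle, had an FPKM of 4.44, 3.76, 5.21, 5.67 and 5.71 in L1 to L5, and of 2.77, 2.61, 3.05, 1.89 and 3.61 in F1 to F5. All luteal phase ovaries were above the follicular phase (4.96 ± 0.844 in luteal against 2.79 ± 0.632 in follicular ovaries, log2 fold change 0.82, SE 0.176, limma adjusted p = 0.00344). Of the 7 smooth muscle and pericyte markers 5 were lower and 2, RGS5 and PDGFRB, were higher, and their part in this difference was not tested. ITGA3 did not pass the threshold, at 2.38 ± 0.395 in luteal against 2.75 ± 0.622 in follicular ovaries (log2 fold change -0.18, adjusted p = 0.437). ITGB4, the beta subunit of hemidesmosomes, was scarce and just past the threshold, at 1.50 ± 0.586 in luteal against 0.840 ± 0.220 in follicular ovaries (log2 fold change 0.71, SE 0.267, limma adjusted p = 0.0485). It lost the call with no filter (adjusted p = 0.0706) and in 8 of the 10 fits on 9 ovaries, all except those without L2 and F5 (adjusted p from 0.0534 to 0.107). With only its most abundant transcript the adjusted p was 0.504.

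Of the 6 integrins found mainly on leukocytes, ITGAL, ITGAM, ITGAX, ITGAE, ITGB2 and ITGB7, 1 passed the threshold, 16.7% beside 43.7% of all genes. It was ITGAE, which pairs with ITGB7 on lymphocytes that bind E-cadherin, with an FPKM of 0.831, 0.877, 1.10, 1.21 and 1.11 in L1 to L5, and of 1.30, 1.26, 1.45, 1.30 and 2.01 in F1 to F5. The phases did not overlap, but the gap between them was small (log2 fold change -0.47, SE 0.168, limma adjusted p = 0.0422). The call was lost under a common median (adjusted p = 0.0796), quantile normalization (adjusted p = 0.0605), the TPM scale (adjusted p = 0.133) and no filter (adjusted p = 0.0674), and in 8 of the 10 fits on 9 ovaries, all except those without L4 or F2 (adjusted p from 0.0519 to 0.0906). With only its most abundant transcript the adjusted p was 0.150. ITGB2, the beta subunit common to ITGAL, ITGAM and ITGAX, was at 8.08 ± 1.05 in luteal against 7.22 ± 1.93 in follicular ovaries (log2 fold change 0.19, adjusted p = 0.384). ITGAM gave log2 fold change 0.48, adjusted p = 0.0579, and passed under a common median (adjusted p = 0.0332), quantile normalization (adjusted p = 0.0323) and the TPM scale (adjusted p = 0.0328), without L5 (adjusted p = 0.0481) and without F5 (adjusted p = 0.0199). ITGAX gave log2 fold change -0.55, adjusted p = 0.0667, and passed without L1 (adjusted p = 0.0418) or F1 (adjusted p = 0.0249). ITGB7 gave log2 fold change 0.57, adjusted p = 0.0903, and passed under a common median (adjusted p = 0.0497), under quantile normalization (adjusted p = 0.0379), without L1 (adjusted p = 0.0425) or without F5 (adjusted p = 0.0173). ITGAL gave log2 fold change 0.13, adjusted p = 0.741. Of the 7 leukocyte markers 1, CSF1R, was higher (log2 fold change 0.95, adjusted p = 0.00998), and the other 6 ranged in log2 fold change from -0.08 to 0.43. ITGA4, found on leukocytes and on other cells, was lower, at 7.90 ± 0.635 in luteal against 10.3 ± 1.58 in follicular ovaries (log2 fold change -0.37, SE 0.110, limma adjusted p = 0.0184), a call lost under a common median (adjusted p = 0.0717) and on the TPM scale (adjusted p = 0.0795). ITGA9, its closest relative, was at 18.3 ± 0.835 in luteal against 16.0 ± 2.64 in follicular ovaries (log2 fold change 0.20, adjusted p = 0.152; on the TPM scale, adjusted p = 0.0464).

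Among the laminin alpha chains, which carry the binding sites for integrins, 1 was higher and 2 were lower in the luteal phase. LAMA1, the most abundant of them and the alpha chain of the first laminin described, had an FPKM of 55.7, 52.2, 60.4, 52.1 and 52.7 in L1 to L5, and of 69.8, 70.4, 68.7, 61.2 and 79.0 in F1 to F5. Each follicular phase ovary was above each luteal phase ovary, by a small margin (54.6 ± 3.53 in luteal against 69.8 ± 6.33 in follicular ovaries, log2 fold change -0.35, SE 0.0758, limma adjusted p = 0.00355). LAMA5, an alpha chain of epithelial and vessel basement membranes, had an FPKM of 2.79, 2.08, 2.34, 2.09 and 2.91 in L1 to L5, and of 1.43, 0.908, 1.70, 1.22 and 1.28 in F1 to F5. Its levels were low, and every luteal phase ovary was above the follicular phase (2.44 ± 0.388 in luteal against 1.31 ± 0.290 in follicular ovaries, log2 fold change 0.87, SE 0.173, limma adjusted p = 0.00230). LAMA3, an alpha chain of epithelial basement membranes, was lower still, with an FPKM of 0.312, 0.484, 0.651, 0.315 and 0.314 in L1 to L5, and of 1.47, 0.894, 0.783, 0.804 and 1.23 in F1 to F5. The follicular phase ovaries were all higher than the luteal phase ovaries, by 2.50-fold in the mean (log2 fold change -1.15, SE 0.237, limma adjusted p = 0.00278). LAMA2, the alpha chain of muscle and stromal laminins, was at 28.2 ± 6.55 in luteal against 36.3 ± 4.13 in follicular ovaries and missed the threshold (log2 fold change -0.38, adjusted p = 0.0545). It passed without L2 (adjusted p = 0.0498), L3 (adjusted p = 0.0131) or F1 (adjusted p = 0.0414) and under quantile normalization (adjusted p = 0.0398). With a replicate block its adjusted p was 0.0309 and that of ITGA11 was 0.0351. LAMA4, the alpha chain typical of vessels, was at 26.9 ± 4.47 in luteal against 23.0 ± 3.47 in follicular ovaries (log2 fold change 0.23, adjusted p = 0.179), while 7 of 8 endothelial markers were higher in the luteal phase.

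Among the other laminin chains, LAMC3, a gamma chain, was lower in the luteal phase. It had an FPKM of 16.6, 15.6, 16.0, 15.1 and 18.2 in L1 to L5, and of 23.0, 25.3, 24.3, 18.8 and 19.4 in F1 to F5. L5 came close to F4, and the phases did not overlap (16.3 ± 1.22 in luteal against 22.2 ± 2.93 in follicular ovaries, log2 fold change -0.43, SE 0.0968, limma adjusted p = 0.00435). LAMB3, a beta chain of epithelial laminin that joins with the product of LAMA3, was at 0.294 ± 0.0983 in luteal against 0.447 ± 0.158 in follicular ovaries and did not pass the threshold (log2 fold change -0.45, adjusted p = 0.160). Granulosa cell markers FSHR, AMH and FOXL2 were lower in the luteal phase as well (log2 fold change -0.94, -1.42 and -0.76), and their part in the laminin differences was not tested.

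**Figure D2:**
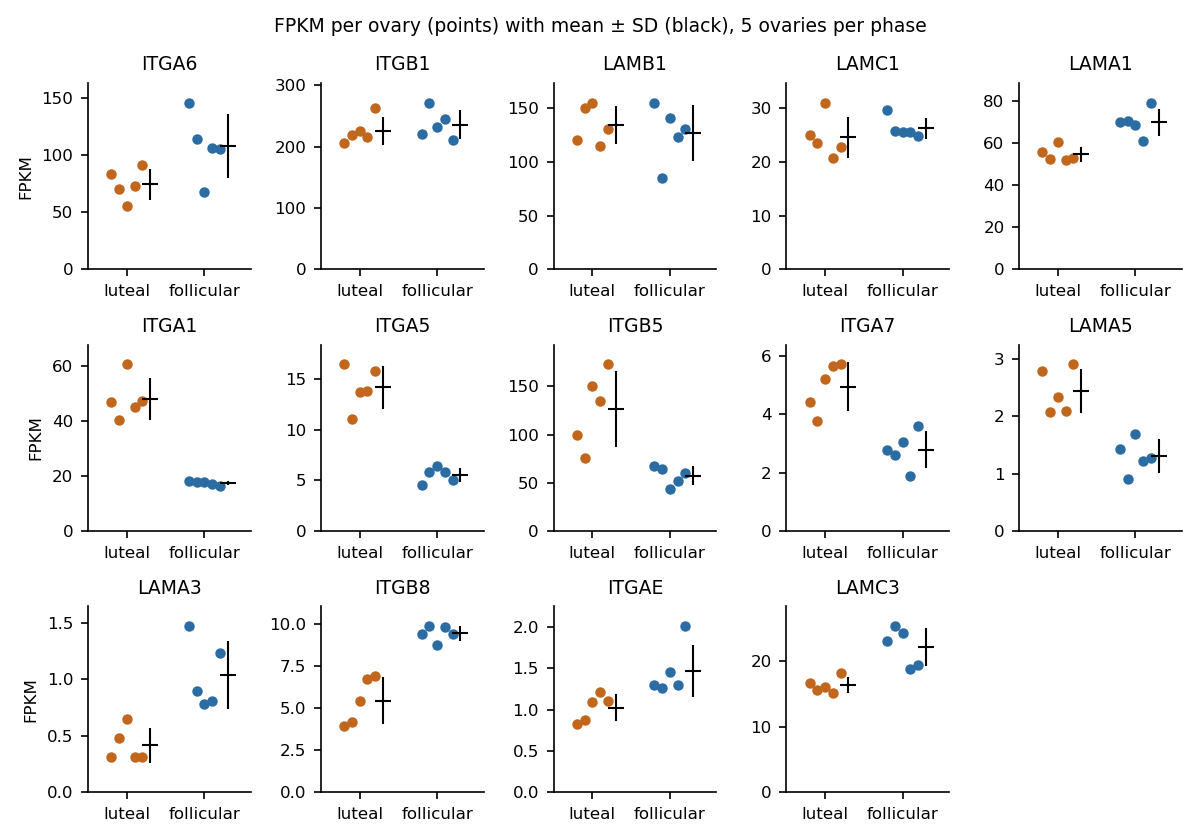
FPKM of 14 integrin and laminin genes in each of 10 ovaries, on linear axes from 0; points are ovaries, the black mark and bar are the mean and SD of 5 ovaries. The top row holds the most abundant gene of each class by the mean over all 10 ovaries. The middle row holds the 5 genes that were higher in the luteal phase with no overlap. The bottom row holds 4 genes that, like LAMA1 of the top row, were lower with no overlap.

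Because every FPKM of an ovary shares its scaling, each gene was also expressed as a share of its class, which no scaling of an ovary can change. These shares are given as a description. The shares of a class add up to the whole, so a larger share of a gene lowers those of the others. Among integrin beta genes ITGB1 and ITGB5 were the 2 largest in every ovary. The share of ITGB1 was 61.2 ± 5.52% in luteal against 74.8 ± 3.33% in follicular ovaries, and that of ITGB5 was 33.4 ± 6.10% in luteal against 18.2 ± 2.89% in follicular ovaries. Neither share overlapped between the phases, although the FPKM of ITGB1 did not pass the threshold. ITGB8 made up 1.45 ± 0.231% in luteal against 3.00 ± 0.143% in follicular ovaries. Among integrin alpha genes the share of ITGA6 was 27.4 ± 3.98% in luteal against 43.3 ± 7.22% in follicular ovaries. It ranged from 20.7 to 31.0% and from 32.4 to 51.9%, so that the share did not overlap, while the FPKM of ITGA6 did. ITGA1 made up 17.7 ± 2.76% in luteal against 7.18 ± 0.863% in follicular ovaries, and ITGA5 5.21 ± 0.438% in luteal against 2.30 ± 0.538% in follicular ovaries, again without overlap. ITGAV held 27.7 ± 0.675% in luteal against 24.8 ± 2.49% in follicular ovaries, with overlap.

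In the laminin alpha class LAMA1 held 48.7 ± 2.68% in luteal against 53.1 ± 3.61% in follicular ovaries, and LAMA2 24.8 ± 3.50% in luteal against 27.6 ± 3.05% in follicular ovaries, both with overlap. The share of LAMA4 was 23.8 ± 2.04% in luteal against 17.5 ± 2.65% in follicular ovaries with no overlap, although its FPKM did not pass the threshold. LAMA5 made up 2.19 ± 0.438% in luteal against 0.994 ± 0.205% in follicular ovaries, and LAMA3 0.362 ± 0.0919% in luteal against 0.792 ± 0.242% in follicular ovaries. LAMB1 held 99.8 ± 0.0825% in luteal against 99.6 ± 0.113% in follicular ovaries of the beta class, which here holds only LAMB1, LAMB3 and LAMB4. Since LAMB2 was not analysed, the share of LAMB1 among all beta chains and the sum of the class are not known. The summed FPKM overlapped between the phases in all 5 classes. It was 271 ± 19.4 in luteal against 246 ± 25.6 in follicular ovaries for integrin alpha genes, and 372 ± 57.5 in luteal against 315 ± 23.9 in follicular ovaries for integrin beta genes. For laminin genes it was 113 ± 13.3 in luteal against 131 ± 6.32 in follicular ovaries in the alpha class, 135 ± 17.8 in luteal against 128 ± 26.2 in follicular ovaries in the beta class and 41.4 ± 3.96 in luteal against 49.7 ± 4.08 in follicular ovaries in the gamma class.

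**Figure D3:**
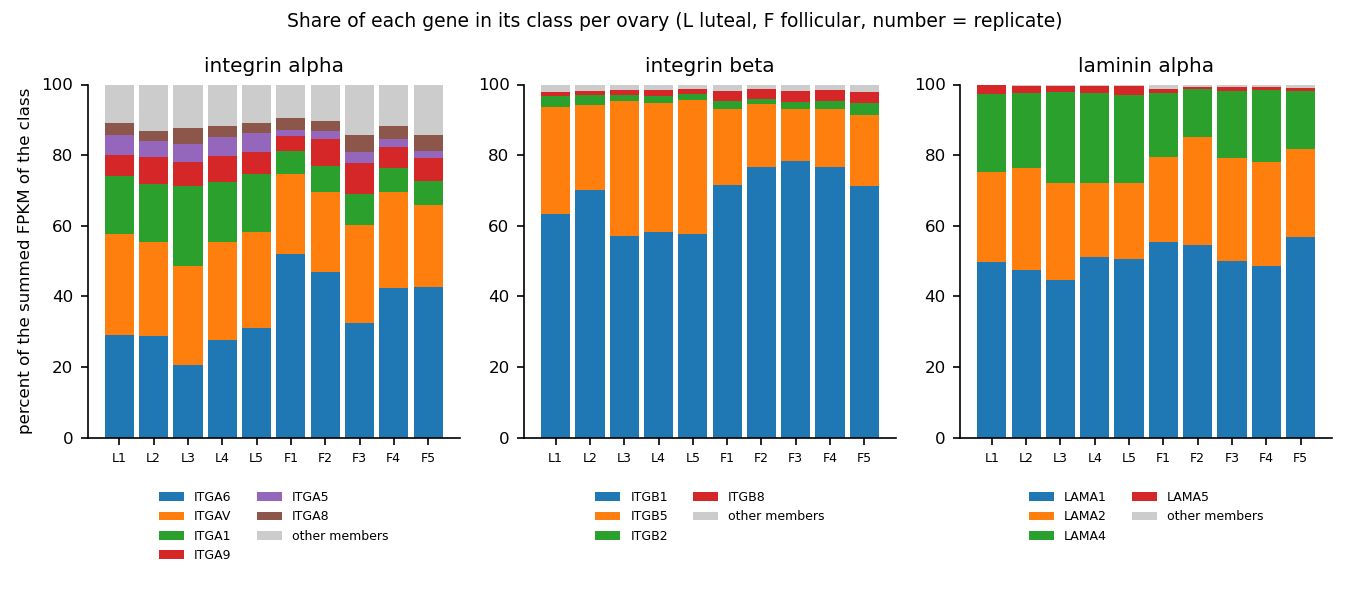
Percent of the summed FPKM of a class held by each gene in each ovary (L1 to L5 luteal phase, F1 to F5 follicular phase), for integrin alpha, integrin beta and laminin alpha genes. ITGB5 and ITGA1 take larger shares in L1 to L5, and ITGA6 and ITGB1 larger shares in F1 to F5.

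The table lists 2 or more transcripts for 22 of the members. In a limma fit over 29061 mRNA transcripts, 52 of the 75 member transcripts were tested and 18 passed the threshold, 11 higher and 7 lower in the luteal phase, beside 17.3% of all transcripts tested. No member had transcripts that passed in both directions. For LAMA3 1 of its 2 transcripts passed the threshold. XM_018039637.1 had an FPKM of 0.0141, 0.0304, 0.124, 0.0143 and 0.0230 in L1 to L5, and of 1.13, 0.756, 0.117, 0.624 and 0.948 in F1 to F5. F3 was as low as the highest luteal phase ovary, and the other follicular phase ovaries were far above, so that in F3 the level of the gene came mostly from the other transcript (log2 fold change -2.37, SE 0.459, limma adjusted p = 0.00621). XM_018039638.1 was at 0.374 ± 0.109 in luteal against 0.322 ± 0.208 in follicular ovaries (log2 fold change 0.26, adjusted p = 0.652). The first transcript made up 8.33 ± 6.08% of LAMA3 in luteal ovaries and 66.2 ± 28.8% in follicular ovaries.

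For ITGA6, XM_018064673.1, the less abundant transcript except in F4, was lower in the luteal phase, at 13.5 ± 4.38 in luteal against 34.1 ± 18.5 in follicular ovaries (log2 fold change -1.23, SE 0.361, limma adjusted p = 0.0408). F4 was the highest at 62.5, the other follicular ovaries were at 18.2 to 41.3, and F5 lay among the luteal ovaries. The other, XM_018064676.1, was at 61.1 ± 9.91 in luteal against 73.7 ± 26.1 in follicular ovaries and did not pass (log2 fold change -0.21, adjusted p = 0.611). ITGB8 was lower through XM_005679027.3, at 3.74 ± 1.69 in luteal against 7.41 ± 0.469 in follicular ovaries (log2 fold change -1.07, SE 0.257, limma adjusted p = 0.0171), and its other two transcripts did not pass. ITGB1, not past the threshold as a gene, had 2 minor transcripts that were higher in the luteal phase. NM_001314156.1 had an FPKM of 4.07, 2.70, 2.52, 4.55 and 0.770 in L1 to L5, and of 0.10, 0.0715, 0.132, 0.104 and 0.106 in F1 to F5 (log2 fold change 3.70, SE 0.425, limma adjusted p = 3.31e-04). XM_018056844.1 was at 4.54 ± 2.74 in luteal against 0.445 ± 0.0797 in follicular ovaries (log2 fold change 2.79, SE 0.503, limma adjusted p = 0.00423). L5 was the lowest luteal phase ovary for both, and still above every follicular phase ovary. Together these minor forms were the smaller part of ITGB1 in every ovary, while XM_018056845.1 held 96.6 ± 1.80% and 99.8 ± 0.0479%. LAMA4 likewise had 1 of 3 transcripts higher, XM_018053049.1, at 4.45 ± 1.08 in luteal against 2.54 ± 0.644 in follicular ovaries (log2 fold change 0.79, SE 0.219, limma adjusted p = 0.0333).

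Values per transcript also rest on how reads were divided between the transcripts of a gene, which was not tested. Of the 3 transcripts of LAMA2 1 held over 99% of the gene in 6 ovaries and under 1% in 4 others, with both kinds in each phase, while the sum over the 3 stayed between 21.2 and 40.2. All values per gene given here are sums over transcripts. With the most abundant transcript of each gene alone, the luteal minus follicular difference in share of class was, in percentage points, 3.52 for LAMA4 in place of 6.34 and -15.0 for LAMA1 in place of -4.35. It turned sign for LAMA2, to 10.5 from -2.76, and was 0.167 for ITGAV in place of 2.94.

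**Figure D4:**
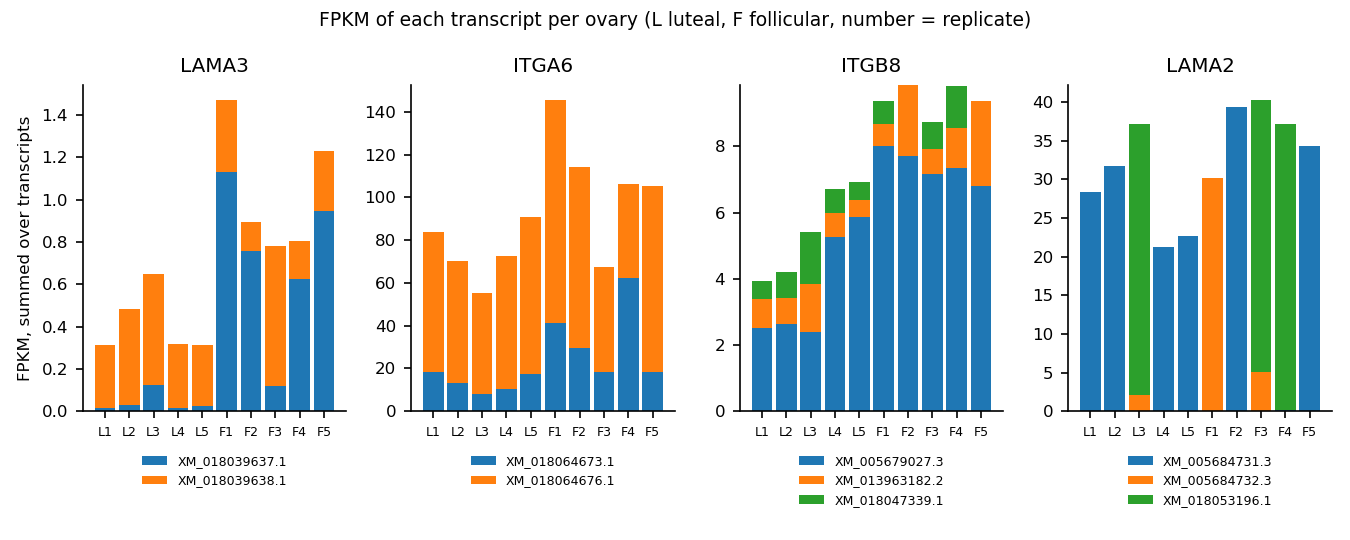
FPKM of each transcript of LAMA3, ITGA6, ITGB8 and LAMA2, stacked to the sum of the gene, in each ovary (L1 to L5 luteal phase, F1 to F5 follicular phase). XM_018039637.1 of LAMA3 is at most 0.124 in L1 to L5 and is also low in F3, while the transcript that holds LAMA2 switches from ovary to ovary within a phase.

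Genes whose products meet integrins and laminins were taken from 4 lists by function. The lists were drawn up with earlier results of these data known, so their shares of calls are a description only. Of 15 other basement membrane genes 6 were higher and 4 were lower in the luteal phase, 66.7% in all beside 43.7% of all genes, with a median log2 fold change of 0.16. COL15A1, a collagen found at vessel basement membranes, was at 156 ± 27.0 in luteal against 17.1 ± 4.46 in follicular ovaries (log2 fold change 3.20, SE 0.169, limma adjusted p = 2.11e-07). The type IV collagen chains, the second network of basement membranes, were divided. COL4A1 and COL4A2, the chains present in nearly all basement membranes, were higher. COL4A1 was at 163 ± 16.1 in luteal against 59.0 ± 5.76 in follicular ovaries (log2 fold change 1.46, SE 0.0884, limma adjusted p = 6.13e-07), and COL4A2 at 63.1 ± 10.6 in luteal against 25.2 ± 3.39 in follicular ovaries (log2 fold change 1.31, SE 0.123, limma adjusted p = 1.68e-05). COL4A3, COL4A4, COL4A5 and COL4A6, chains of more restricted basement membranes, were all lower. COL4A6 was at 9.54 ± 3.22 in luteal against 20.1 ± 3.03 in follicular ovaries (log2 fold change -1.12, SE 0.209, limma adjusted p = 0.00159), and COL4A4 at 13.9 ± 0.984 in luteal against 25.6 ± 6.50 in follicular ovaries (log2 fold change -0.85, SE 0.138, limma adjusted p = 6.76e-04). COL4A3 was at 5.20 ± 0.587 in luteal against 8.35 ± 2.09 in follicular ovaries (log2 fold change -0.65, SE 0.149, limma adjusted p = 0.00498). The linkers NID1, HSPG2 and AGRN, which tie laminin to other components, did not pass the threshold, while NID2 was higher (log2 fold change 0.97, adjusted p = 0.00156).

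Of 11 other laminin receptors and their partners 4 were higher and 3 lower, 63.6% in all beside 43.7% of all genes (median 0.11). CD151, a tetraspanin that binds laminin-binding integrins, was at 137 ± 23.3 in luteal against 72.4 ± 8.77 in follicular ovaries (log2 fold change 0.90, SE 0.129, limma adjusted p = 2.97e-04). BCAM, a receptor for LAMA5, was higher, as LAMA5 was, at 20.3 ± 3.16 in luteal against 14.3 ± 1.45 in follicular ovaries (log2 fold change 0.49, SE 0.111, limma adjusted p = 0.00448). SGCD, a sarcoglycan of the dystroglycan complex, was lower, at 2.39 ± 0.432 in luteal against 5.28 ± 0.743 in follicular ovaries (log2 fold change -1.12, SE 0.144, limma adjusted p = 1.60e-04), as was the proteoglycan SDC1 (log2 fold change -0.54, SE 0.151, limma adjusted p = 0.0143). Among 20 tested integrin ligands other than laminins 8 were higher and 5 lower, 65.0% in all beside 43.7% of all genes (median 0.17). SPP1, or osteopontin, had an FPKM of 283 ± 81.0 in luteal against 12.6 ± 4.62 in follicular ovaries (log2 fold change 4.50, SE 0.248, limma adjusted p = 2.74e-07). POSTN, or periostin, was at 213 ± 68.5 in luteal against 11.4 ± 2.70 in follicular ovaries (log2 fold change 4.19, SE 0.216, limma adjusted p = 1.85e-07). Both bind ITGAV-containing integrins. Other integrin ligands went the other way: MFGE8 (log2 fold change -0.74, limma adjusted p = 0.0204) and EDIL3 (log2 fold change -0.51, limma adjusted p = 0.0265) were lower. VTN, which encodes vitronectin, stayed at an FPKM of at most 0.0430 and was not tested. CDH1, which encodes E-cadherin, was higher (log2 fold change 1.18, limma adjusted p = 0.00991). VWF, made by endothelial cells, was higher too (log2 fold change 0.91, SE 0.133, limma adjusted p = 3.37e-04), and so was FN1, the ligand of ITGA5 with ITGB1 (log2 fold change 0.61, adjusted p = 0.00317). NPNT, a basement membrane ligand of ITGA8, was lower, at 12.9 ± 2.42 in luteal against 26.1 ± 5.00 in follicular ovaries (log2 fold change -1.01, SE 0.166, limma adjusted p = 7.05e-04).

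Adaptors and kinases link integrins to the actin skeleton and to signalling. Of 28 tested 3 were higher (PARVB, PARVG and PTK2B) and 6 lower, 32.1% in all beside 43.7% of all genes. Their median log2 fold change was -0.17, beside -0.14 over all genes. How the calls of the partner lists change under other scalings is not given here. TLN2 was at 1.83 ± 0.279 in luteal against 3.22 ± 0.402 in follicular ovaries (log2 fold change -0.78, SE 0.137, limma adjusted p = 0.00108), TGFB1I1 at 3.08 ± 0.574 in luteal against 5.31 ± 0.745 in follicular ovaries (log2 fold change -0.77, SE 0.148, limma adjusted p = 0.00181) and the kinase SRC at 3.44 ± 0.460 in luteal against 5.23 ± 0.467 in follicular ovaries (log2 fold change -0.60, SE 0.113, limma adjusted p = 0.00165). LIMS1 (log2 fold change -0.32, adjusted p = 0.00714), PTK2, the focal adhesion kinase (log2 fold change -0.20, adjusted p = 0.0274), and CRK (log2 fold change -0.17, adjusted p = 0.0471) were the other lower genes. PTK2 and CRK lay only -0.062 and -0.034 from the median of all genes on the log2 scale. TLN1, VCL, ILK, PXN and FERMT2 were among the 19 that did not pass the threshold. In the marker lists 7 of 8 endothelial genes were higher, and of 7 smooth muscle and pericyte genes 5 were lower and 2 higher. Their part in the differences of these lists was not tested. COL1A1 and COL1A2 stand both among the ligands and among the stromal markers.

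**Figure D5:**
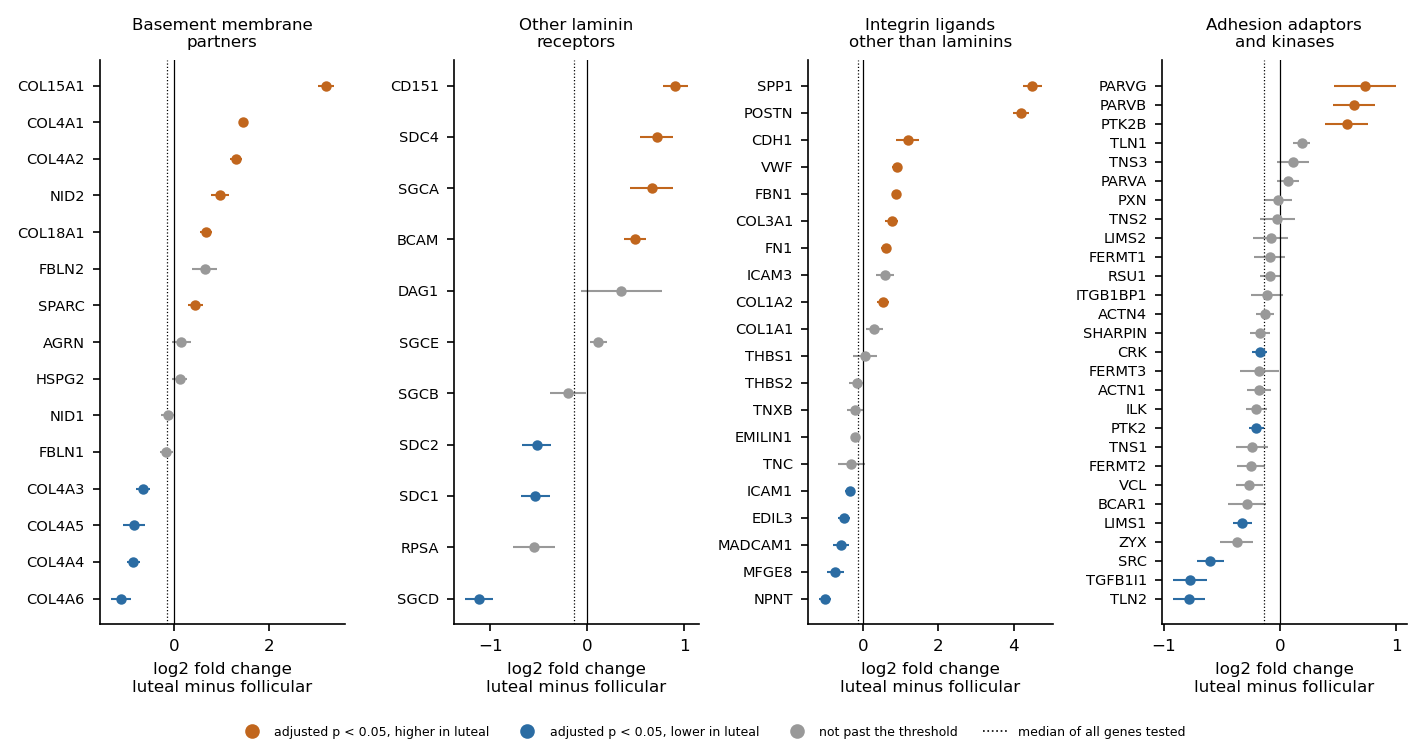
Log2 fold change (luteal minus follicular, on log2(FPKM + 0.1)) with 1 standard error for 15 basement membrane genes, 11 other laminin receptors, 20 integrin ligands other than laminins and 28 adhesion adaptors and kinases; the horizontal scales differ between panels. COL4A1 and COL4A2 lie to the right and COL4A3 to COL4A6 to the left, and most adaptors lie close to the dotted line, the median of all genes.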

How the data were processed

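Total RNA of 10 goat ovaries, 5 per phase, was measured with 1 ribosomal RNA-depleted, strand-specific library each. The deposited values are FPKM per transcript, which the authors made by aligning reads with HISAT2, assembling with StringTie and quantifying with Cuffdiff. The genome build is not given in the sources used here, so no coordinates are given. FPKM hold no counts, so the depth of a library and the counting error of a value are unknown, and no count test was run.

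FPKM of protein-coding transcripts were summed per symbol. limma 3.58.1 in R 4.3.3 (lmFit, eBayes with trend) was fitted to log2(FPKM + 0.1), two-sided, over the 15359 genes that reached an FPKM of 0.1 in 5 or more ovaries, with Benjamini-Hochberg adjustment and a threshold of 0.05. The script was tested on the log2 values of these ovaries, with the phase difference removed and known fold changes added to a random set of genes. The outcome of that test is not given here. Phases came from the labels. All 36 gene IDs were found in the RefSeq gene table of assembly ARS1.2, which was used for names and neighbours only. LAMB2 and ITGAD were not analysed here. A withheld item is not reported here, although counts, medians and class sums include it. The mRNA table, which repeats the protein-coding rows, and the lncRNA table were not used here.

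The members, the partner and marker lists and the tests were chosen with earlier results of these data known. Values in every ovary are given for the most abundant member of each class by the mean over all ovaries. They are also given, per direction, for the up to 6 members with the largest log2 fold change among those called with no overlap. Partner genes are named, up to 3 per direction and list, by the same order. Other partner genes named in the text, and the transcripts, were chosen after their values were seen. Alternatives were a pseudocount of 1 or 0.01, no filter or a filter at 0.5, equal medians of log values in all ovaries (a common median), quantile normalization, a TPM scale, eBayes without trend, a replicate block, the most abundant transcript only, and leaving out each ovary.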

Additional observations from a re-analysis of the deposited data

Results flagged for a closer look

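In 5 of 68 groups of 5 ovaries (34 genes in 2 phases), 1 ovary stood apart from the other 4 by more than 0.71 of the whole range of the group, Dixon's 95% critical value, which chance exceeds in about 1 of 20 groups. ITGA2 was at an FPKM of 3.67 in follicular phase replicate 2, where the other follicular phase ovaries were at 1.66 to 2.08. ITGAE was at 2.01 in follicular phase replicate 5, beside 1.26 to 1.45 in the others. ITGB3 was at 3.80 in luteal phase replicate 1, beside 2.17 to 2.61 in the others. LAMA4 was at 34.7 in luteal phase replicate 3, beside 23.4 to 25.9 in the others. LAMC1 was at 29.7 in follicular phase replicate 1, beside 24.8 to 25.8 in the others.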

How the results depend on the processing

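Of the 16 called members, 11 kept their call under every alternative. The calls of ITGA4, ITGA6, ITGAE, ITGAV and ITGB4 were each lost under at least 1, and their values stand in the report. Members called numbered 13 without a filter, 17 under a common median, 19 under quantile normalization, 16 on the TPM scale and 13 to 17 without 1 ovary, beside 16. Over all genes 36.3% of calls were higher in the luteal phase, against 48.8% under a common median, 41.8% under quantile normalization and 52.5% on the TPM scale. Calls over all genes ranged from 5488 to 7008 without 1 ovary. No label pairs the ovaries by their replicate numbers. Deviations from the phase means correlated at 0.0258, 0.199, 0.192, 0.0876 and 0.0358 for equal numbers 1 to 5, and 2 of 5 luteal phase ovaries correlated best with their own number. With nothing to set these correlations against, they cannot decide whether equal numbers belong together. A replicate block gave 18 member calls (the 16, and ITGA11 and LAMA2) and 7020 genes. Signs turned only for members that were not called. The log2 fold change of ITGA2B was 0.032 under a common median, 0.045 under quantile normalization, 0.038 on the TPM scale, and from -0.17 (without luteal phase replicate 1) to 0.058 (without luteal phase replicate 2) without 1 ovary, with 0.038 without follicular phase replicate 3. That of ITGA8 was 0.049, 0.013 and 0.062 under the same 3 scalings, and from -0.15 (without luteal phase replicate 3) to 0.054 (without luteal phase replicate 2) without 1 ovary, with 0.039 without follicular phase replicate 5. ITGB1 gave 0.020 under a common median and 0.034 on the TPM scale. Without 1 ovary LAMB1 gave -0.040 (without follicular phase replicate 2) to 0.17, and ITGAL -0.053 (without the same ovary) to 0.38. With the most abundant transcript of each gene, ITGAL gave -0.030 and LAMA2 2.77 (adjusted p = 0.448 in limma). With that transcript alone, the luteal minus follicular difference in share of class was 0.167 percentage points for ITGAV (2.94 over all transcripts), -15.0 for LAMA1 (-4.35), 10.5 for LAMA2 (-2.76) and 3.52 for LAMA4 (6.34). The cause of these changes was not tested. LAMB3 has no value with the filter at 0.5, which it did not pass. Depth was unknown, so what it limits could not be set.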

Other observations

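Some members are next to each other among the protein-coding genes of the RefSeq gene table. ITGA2 and ITGA1 were both higher in the luteal phase (log2 fold change 0.82 and 1.44). ITGAM and ITGAX, neither past the threshold, gave 0.48 and -0.55. LAMB4, at a mean FPKM of 0.0211 (luteal) and 0.0302 (follicular), is next to LAMB1, the second most abundant member.

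The platelet subunit ITGA2B had a mean FPKM of 0.960 over the 10 ovaries, while the platelet marker GP9 was at means of 0.0028 (luteal) and 0.0181 (follicular). The other markers listed for platelets and red cells, PF4, HBB and HBA, were not analysed here.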
